A study of Mus musculus with 8 samples.

Results

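The genes examined here encode receptors for extracellular nucleotides and adenosine in the mouse hippocampus. They were chosen by name, as 10 of the 29442 genes in the table: the P2Y receptors P2ry1, P2ry6, P2ry12, P2ry13 and P2ry14, the P2X channels P2rx4 and P2rx7, and the adenosine receptors Adora1, Adora2a and Adora2b. All 10 had reads in every library and were tested. The hippocampal RNA came from 8 female C57BL/6 J mice aged 6 to 8 weeks, of which 4 are labelled DHEA (30 mg/kg/day) and 4 sesame oil, the vehicle. Both arms were injected under the skin of the abdomen for 21 days, and behavioural tests preceded dissection. The controls were littermates per the methods, and the labels do not say which mice shared a litter. Each library is listed as 1 tissue sample, called here by its title: HipR3, HipR4, HipR7 and HipR11 are labelled DHEA, and HipR5, HipR9, HipR10 and HipR16 sesame oil. The design text gives another number of tissues than the 8 samples listed, which was not resolved here. DHEA, dehydroepiandrosterone, is a steroid that tissues convert to androgens and oestrogens.

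ATP released by neurons and glia acts on P2X receptors, which are cation channels, and on P2Y receptors, which couple to G proteins. Ectonucleotidases at the cell surface break ATP down through ADP and AMP to adenosine, which acts on A1 and A2 receptors and is then taken up by transporters and phosphorylated or deaminated. In the brain, P2ry12, P2ry13 and P2ry6 are mostly microglial and steer process movement and engulfment, while the A1 receptor is found mainly on neurons, where it restrains transmitter release.

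The methods place the dissection in the ventral hippocampus, and the labels say hippocampus. Its defining markers were present in every library: Neurod6, the most abundant of the 7 listed hippocampal markers, had a median level of 106 FPKM (fragments counted per kilobase of gene length, scaled to the library's total). The choroid plexus, which lies beside the hippocampus, entered to a varying extent: the summed abundance in CPM (counts scaled to a common library total) of 5 of its markers, chiefly Ttr, ran from 91.5 in HipR4 to 4405 in HipR3 in the DHEA-labelled libraries and from 502.4 to 3080 in the oil-labelled ones. Total counts were 35748416 to 38038361 in the DHEA-labelled libraries and 31483772 to 35418297 in the oil-labelled ones, so every DHEA-labelled library was the deeper; CPM values were scaled by TMM factors. HipR3 and HipR4 stood apart from the rest: the chi-square per degree of freedom of the counts of 2 libraries was 29.4 to 63.6 in the 13 pairs that hold either and 7.93 to 20.9 in the 15 other pairs. The receptors and gene lists are therefore given without both of them as well, with 2 DHEA-labelled libraries left, an alternative chosen after the data were seen. Since these libraries were also the highest for P2ry12 and for the summed microglial markers, a fall of those values without them is largely fixed by the choice and is a description, not a test. Log2 fold changes are DHEA over sesame oil, with the arms as the labels give them. Signs in the study's own gene table, and in its qRT-PCR of P2ry10b in further samples, run the other way, which was not resolved here, so each arm is called by its label.

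P2ry12, P2ry13 and P2ry14 are neighbours on the same strand of chromosome 3, and P2rx4 and P2rx7 are neighbours on chromosome 5. P2ry1 also lies on chromosome 3, P2ry6 on chromosome 7, Adora1 on chromosome 1, Adora2a on chromosome 10 and Adora2b on chromosome 11. RefSeq promoter sequences (GRCm38.p6) were found for 8 of the 10 receptors, with 13 start sites. No entry was found for P2ry6 and Adora2a. The 250 bases before the start are given for P2ry12 and P2ry13, whose levels in the libraries had a similar profile, and for Adora1, the most abundant receptor. Capitals mark CG dinucleotides.
P2ry12, chr3:59262986-59263235, minus strand: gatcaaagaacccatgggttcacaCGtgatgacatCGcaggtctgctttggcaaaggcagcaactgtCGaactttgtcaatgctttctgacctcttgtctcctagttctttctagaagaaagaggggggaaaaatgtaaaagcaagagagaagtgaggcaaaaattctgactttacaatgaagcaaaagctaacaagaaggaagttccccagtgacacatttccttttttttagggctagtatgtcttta
P2ry13, chr3:59210883-59211132, minus strand: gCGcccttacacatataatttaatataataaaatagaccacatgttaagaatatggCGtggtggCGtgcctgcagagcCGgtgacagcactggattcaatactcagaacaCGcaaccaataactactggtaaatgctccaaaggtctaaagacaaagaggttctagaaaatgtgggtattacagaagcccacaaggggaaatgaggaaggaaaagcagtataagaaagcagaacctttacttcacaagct
Adora1, chr1:134234857-134235106, minus strand: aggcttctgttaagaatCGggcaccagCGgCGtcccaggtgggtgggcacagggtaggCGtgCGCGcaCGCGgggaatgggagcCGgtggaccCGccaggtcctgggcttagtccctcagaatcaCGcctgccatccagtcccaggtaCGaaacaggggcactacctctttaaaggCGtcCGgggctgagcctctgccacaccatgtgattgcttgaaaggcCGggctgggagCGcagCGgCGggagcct
The P2ry12 stretch holds 3 CG dinucleotides and is 41.6% G or C, and that of P2ry13 holds 5 and is 41.6% G or C. The Adora1 stretch holds 18 and is 65.2% G or C, and that of a second Adora1 start holds 19 and is 64.4%. Over 32851 RefSeq promoters the median was 6, with quartiles at 2 and 16. The 4 P2ry14 starts held 1 to 4 and the 2 P2rx7 starts 4 and 6. P2rx4 held 13, P2ry1 20 and Adora2b 22. The androgen receptor half-site AGAACA, searched on both strands from 250 bases before to 50 after the start, was found at the starts of P2ry1 and P2ry13 and at 1 P2ry14 start, and in 19.0% of all promoters. A pair of such half-sites facing each other across 3 bases was found at none of the 13 starts and in 0.00913% of all promoters. These matches are descriptions of the sequence.

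The receptors differed in level far more than the arms did. Levels between genes are compared in FPKM, as medians of the 8 libraries. Adora1 was the highest at 49.6 FPKM, above 96.2% of the genes tested. P2ry12 followed at 16.7 FPKM and P2ry13 at 5.06 FPKM. The channels P2rx4 and P2rx7 had 2.68 and 2.24 FPKM. Adora2b had 1.63 FPKM, P2ry14 1.06, P2ry6 0.737, P2ry1 0.555 and Adora2a 0.455. The order of the 10 medians was the same in both arms.

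Of the 9 pairs of neighbours in this order, 5 kept it in 8 of 8 libraries, each with an adjusted p = 0.0141 (two-sided exact sign-flip permutation test, whose smallest p is 0.00781). They are Adora1 over P2ry12 (2.79-fold), P2ry12 over P2ry13 (3.51-fold), P2ry13 over P2rx4 (1.82-fold), Adora2b over P2ry14 (1.48-fold) and P2ry14 over P2ry6 (1.56-fold). P2rx4 exceeded P2rx7, and P2rx7 exceeded Adora2b, in 7 of 8 libraries (exact adjusted p = 0.0201 for both). P2ry6 over P2ry1 and P2ry1 over Adora2a held in 6 of 8 and did not differ beyond their spread (exact adjusted p = 0.0703 for both). The pairs and their directions were read from the medians of these same libraries, so the tests partly restate the order that chose them. Of the summed FPKM of the 10 receptors, the 3 adenosine receptors held 55.7 to 67.4%, the 5 P2Y receptors 26.6 to 39.0% and the 2 P2X channels 5.23 to 7.29%. HipR4 had the lowest adenosine share and the highest P2Y share.

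**Figure D1:**
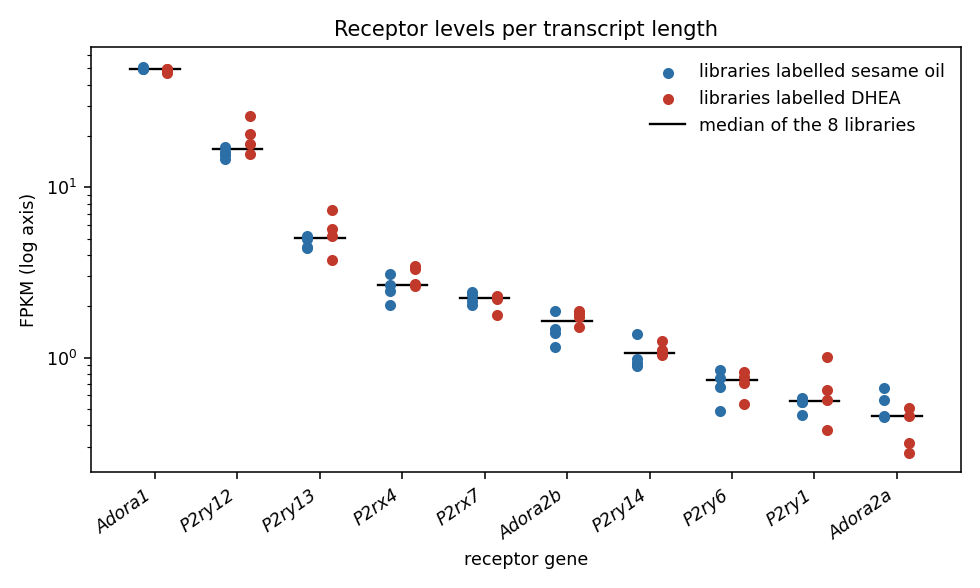
Level of each receptor in FPKM on a log axis, with 1 point per library (blue, labelled sesame oil, red, labelled DHEA, n = 4 each) and a line at the median of the 8. Adora1 is highest at 49.6 FPKM and Adora2a lowest at 0.455, and the arms overlap for every receptor.

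Between the arms, 1 of the 10 receptors, P2ry12, was higher in the DHEA-labelled libraries at an unadjusted p under 0.05, and none was lower. Over the 27612 genes tested, 4.82% were higher and 4.49% lower by this rule. No receptor had an adjusted p under 0.05 (edgeR quasi-likelihood test, Benjamini-Hochberg), nor did any gene of the table (0%). DESeq2 gave 153 genes an adjusted p under 0.05, and 0 of the receptors. No receptor met the study's own rule of an unadjusted p under 0.05 with a difference of 2-fold or more either way, which 1.6% of genes met. With DESeq2, the tool named in the study's methods, 0.594% of genes met it, and with edgeR after filterByExpr 0.368%. The arms overlapped for 10 of 10 receptors, whereas for 2.42% of genes every DHEA-labelled library was above, and for 2.62% below, every oil-labelled library. The log2 fold change was above 0 for 7 of the 10, with a median of 0.187. It was above 0 for 51.2% of all genes tested, with a median of 0.008. For the 12780 genes averaging 100 counts or more the median was 0.012. Without HipR3 and HipR4 the receptor median was 0.02, and the 1 receptor with an unadjusted p under 0.05 was P2rx4 instead of P2ry12. This exchange is largely fixed by the choice, since HipR3 and HipR4 were the highest libraries for P2ry12. For P2rx4 they were the lowest DHEA-labelled ones. In that fit 3.99% of all genes were higher.

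**Figure D2:**
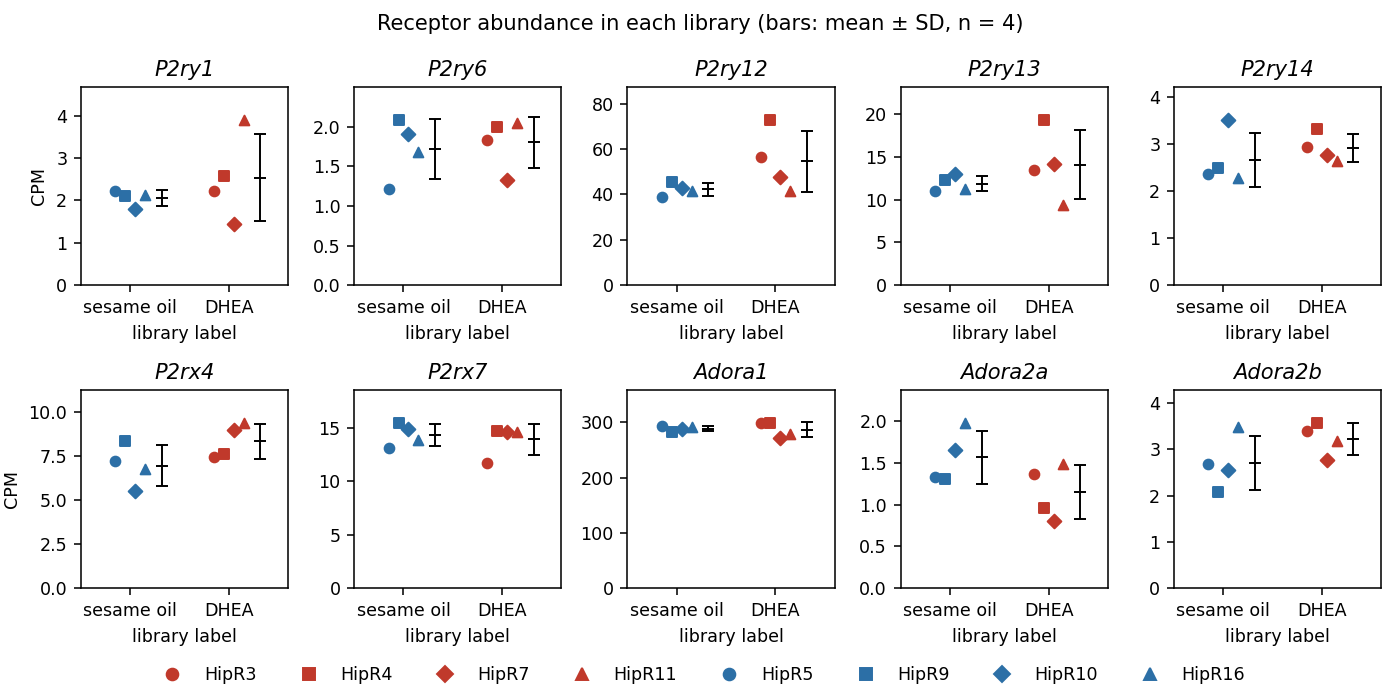
Abundance of each receptor in CPM from 0 (y axes differ between receptors), by library label, with 1 symbol per library and bars for the mean ± SD (n = 4). For P2ry12, 3 of the 4 DHEA-labelled libraries lie above the 4 labelled sesame oil, and HipR11 lies among them.

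P2ry12 encodes the ADP receptor that draws microglial processes to damaged or active cells. Its abundance was 56.3 CPM in HipR3, 72.7 in HipR4, 47.8 in HipR7 and 41.6 in HipR11 (54.6 ± 13.5 CPM, SD, n = 4). In the oil-labelled libraries it was 38.7 in HipR5, 45.6 in HipR9, 42.9 in HipR10 and 41.7 in HipR16 (42.2 ± 2.86 CPM, SD, n = 4). HipR3, HipR4 and HipR7 were above all 4 of these, HipR4 by the widest margin, while HipR11 lay within them. The log2 fold change was 0.37 ± 0.12 (SE), or 1.29-fold with a 95% interval of 1.08 to 1.55 (edgeR, unadjusted p = 0.00726, adjusted p = 0.341). A two-sided exact permutation test of the CPM values gave p = 0.114, where the smallest possible is 0.0286. Without HipR4 the log2 fold change was 0.19 (edgeR, unadjusted p = 0.0441, adjusted p = 0.68), and without HipR11 it was 0.48 (edgeR, unadjusted p = 0.000305, adjusted p = 0.0969). Without both HipR3 and HipR4 it was 0.08 (edgeR, unadjusted p = 0.362, adjusted p = 0.786). Robust moderation of the spread gave an unadjusted p = 0.0719 (edgeR, adjusted p = 0.583).

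P2ry13, the neighbouring gene and another ADP receptor of microglia, followed P2ry12 in its profile. It was 13.5 CPM in HipR3, 19.3 in HipR4, 14.2 in HipR7 and 9.44 in HipR11, against 11 in HipR5, 12.3 in HipR9, 13 in HipR10 and 11.3 in HipR16. HipR4 was again the highest of the 8 libraries and HipR11 the lowest, so the DHEA-labelled libraries lay on both sides of the others. The log2 fold change of 0.25 ± 0.16 (SE) did not pass (edgeR, unadjusted p = 0.137, adjusted p = 0.643). Without HipR11 it was 0.40 with an unadjusted p = 0.00733 (edgeR, adjusted p = 0.222), without HipR4 it was 0.05, and without both HipR3 and HipR4 it was -0.02. The ratio of P2ry13 to P2ry12 in FPKM ran from 0.241 to 0.315 in the DHEA-labelled libraries and from 0.286 to 0.321 in the others (log2 difference -0.14; exact permutation test, two-sided, p = 0.2, adjusted over 6 ratios 0.4). Without HipR7 the log2 difference was -0.21 with an exact p = 0.0286 (adjusted 0.171), and without HipR11 it was -0.08.

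P2ry6 binds UDP and takes part in engulfment by microglia. It had 48 to 75 counts in the DHEA-labelled libraries and 40 to 70 in the oil-labelled ones (log2 fold change 0.07 ± 0.26, SE; edgeR, unadjusted p = 0.797), and its 95% interval ran from -0.48 to 0.61. P2ry14, the receptor of UDP-glucose, had 2.93, 3.31, 2.77 and 2.63 CPM in HipR3, HipR4, HipR7 and HipR11, against 2.35 in HipR5, 2.49 in HipR9, 3.50 in HipR10 and 2.28 in HipR16. All 4 DHEA-labelled libraries were above HipR5, HipR9 and HipR16, and HipR10 was above all of them. The interval of its log2 fold change ran from -0.31 to 0.56.

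P2ry1, the ADP receptor of neurons and astrocytes, had 2.23 CPM in HipR3, 2.58 in HipR4, 1.44 in HipR7 and 3.89 in HipR11. The oil-labelled libraries held 1.79 to 2.23 CPM. The arm labelled DHEA thus contained both the highest library, HipR11, and the lowest, HipR7, and its SD was 1.02 CPM against 0.189 CPM (n = 4 each). The log2 fold change of 0.30 ± 0.27 (SE) did not pass (edgeR, unadjusted p = 0.28). It was 0.02 without HipR11 and 0.49 without HipR7. HipR11, where P2ry1 was highest, was the DHEA-labelled library with the least P2ry12 and P2ry13.

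Of the channels, P2rx4, which in microglia is known from neuropathic pain, was 7.40 CPM in HipR3, 7.57 in HipR4, 8.93 in HipR7 and 9.33 in HipR11. It was 7.21 in HipR5, 8.33 in HipR9, 5.50 in HipR10 and 6.73 in HipR16. HipR7 and HipR11 were above all oil-labelled libraries, and the order of the libraries differed from that of P2ry12. The log2 fold change was 0.26 ± 0.15 (SE; edgeR, unadjusted p = 0.0917, adjusted p = 0.591). It was 0.16 without HipR10 (edgeR, unadjusted p = 0.295). Without HipR9 it was 0.36 with an unadjusted p = 0.033 (edgeR, adjusted p = 0.557). Without both HipR3 and HipR4, the lowest DHEA-labelled libraries for P2rx4, it was 0.39 (edgeR, unadjusted p = 0.0287, adjusted p = 0.568). Their choice largely fixes this rise.

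P2rx7, the channel that opens at high ATP and sets off the NLRP3 inflammasome, was 11.7 CPM in HipR3 and 14.6 to 14.7 in the other DHEA-labelled libraries, against 13.1 to 15.4 in the oil-labelled ones. Its log2 fold change was -0.04 with an interval of -0.26 to 0.19 (edgeR, unadjusted p = 0.717). The FPKM ratio of P2rx7 to P2rx4 was 0.663 to 0.82 in the DHEA-labelled libraries and 0.767 to 1.15 in the others, a log2 difference of -0.31 that did not pass (exact permutation test, two-sided, p = 0.0857, adjusted over 6 ratios 0.4). It was -0.18 without HipR10.

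Adora1 was the steadiest receptor. It was 298 CPM in HipR3, 298 in HipR4, 271 in HipR7 and 279 in HipR11, against 294 in HipR5, 282 in HipR9, 287 in HipR10 and 291 in HipR16. The DHEA-labelled libraries spanned both the highest and the lowest values. The within-arm coefficient of variation was 3.27%, against 8.84 to 24.7% for the other receptors. The 95% interval of its fold change was 0.914 to 1.08 (edgeR, unadjusted p = 0.863). Its counting error was 0.998% (CV), so depth adds little to this interval. The spread between libraries that edgeR estimated, drawing on other genes, was 6.74%, above the 3.27% observed. The interval is therefore not the scatter of these libraries alone.

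Adora2a, the receptor known for its high level in the striatum, was the lowest receptor here. It had 51, 34, 29 and 54 counts in HipR3, HipR4, HipR7 and HipR11, and 44, 44, 59 and 62 in HipR5, HipR9, HipR10 and HipR16. HipR4 and HipR7 were below all oil-labelled libraries. The log2 fold change was -0.44 ± 0.29 (SE), with an interval of -1.05 to 0.18 (edgeR, unadjusted p = 0.152, adjusted p = 0.645). The other striatal markers were present as well, with Ppp1r1b at 26 FPKM, and 0 of 7 passed an unadjusted p under 0.05 in either direction; their summed CPM was 94.7 in HipR4 and 120 to 121.6 in the other DHEA-labelled libraries, against 106.1 to 120.8. The FPKM ratio of Adora1 to Adora2a was 110 in HipR3, 159 in HipR4, 171 in HipR7 and 95.9 in HipR11, and 75.1 to 112 in the oil-labelled libraries (log2 difference 0.45; exact permutation test, two-sided, p = 0.143, adjusted over 6 ratios 0.4). Adora2b, the A2 receptor of lower affinity, had 2.77 to 3.56 CPM in the DHEA-labelled libraries and 2.08 to 3.49 in the others (log2 fold change 0.26 ± 0.20, SE; edgeR, unadjusted p = 0.225).

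**Figure D3:**
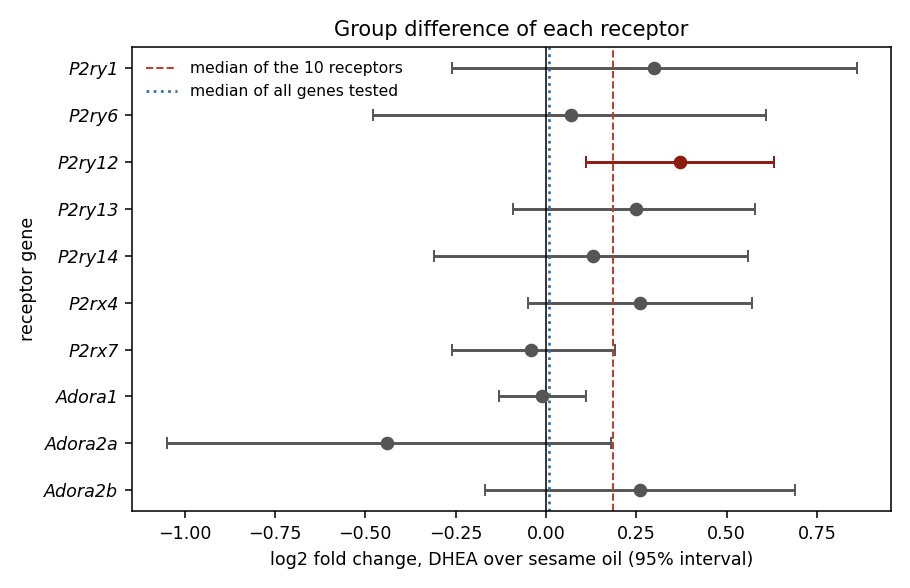
Log2 fold change of each receptor, DHEA over sesame oil by label, with 95% intervals from edgeR's quasi-likelihood test (n = 4 each). The interval of P2ry12 lies above 0, and the other 9 intervals cross it. The dashed line marks the receptor median of 0.187 and the dotted line the median of all genes, 0.008.

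Markers of microglia were compared beside these receptors. All 16 listed microglial genes other than the receptors had a log2 fold change above 0 (median 0.22), 6 of 16 passed an unadjusted p under 0.05 in that direction and 0 an adjusted one. The 6 became 3 without HipR4, 10 without HipR11 and 1 without both HipR3 and HipR4, where the median was 0.05. Of all genes, 4.82% were higher with all libraries, 3.97% without HipR4, 5.74% without HipR11 and 3.99% without both HipR3 and HipR4. Their summed abundance was 555.6 CPM in HipR3, 647 in HipR4, 519.8 in HipR7 and 500.1 in HipR11, against 437.4 in HipR5, 521.9 in HipR9, 485.6 in HipR10 and 469.6 in HipR16. HipR4 was the highest and HipR11 the lowest of the DHEA-labelled libraries, as for P2ry12 and P2ry13. Ctss, a lysosomal protease gene, had 50.7 to 70.5 CPM against 39.9 to 49.1 with no overlap (log2 fold change 0.42; edgeR, unadjusted p = 0.000324, adjusted p = 0.23). None of the 16 was at 0 in any library. In bulk tissue, more microglia and more RNA per microglial cell cannot be told apart.

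Set against this list, P2ry12 counts were 10.1% of the list's counts in HipR3, 11.2% in HipR4, 9.19% in HipR7 and 8.32% in HipR11, and 8.74 to 8.87% in the 4 oil-labelled libraries. HipR3, HipR4 and HipR7 were above and HipR11 below that narrow range. The log2 difference of 0.13 between the arms did not pass (exact permutation test, two-sided, p = 0.314, adjusted over 6 ratios 0.471). It was 0.06 without HipR4, and 0.20 without HipR11 with an exact p = 0.0286, the smallest possible (adjusted 0.171). P2ry13 was 1.89 to 2.98% of the list in the DHEA-labelled libraries and 2.36 to 2.67% in the others (log2 difference -0.01; exact p = 0.971), and P2ry6 was 0.256 to 0.41% and 0.276 to 0.398% (log2 difference -0.13; exact p = 0.486). With 1 library left out, the difference for P2ry6 ran from -0.25 to -0.02.

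**Figure D4:**
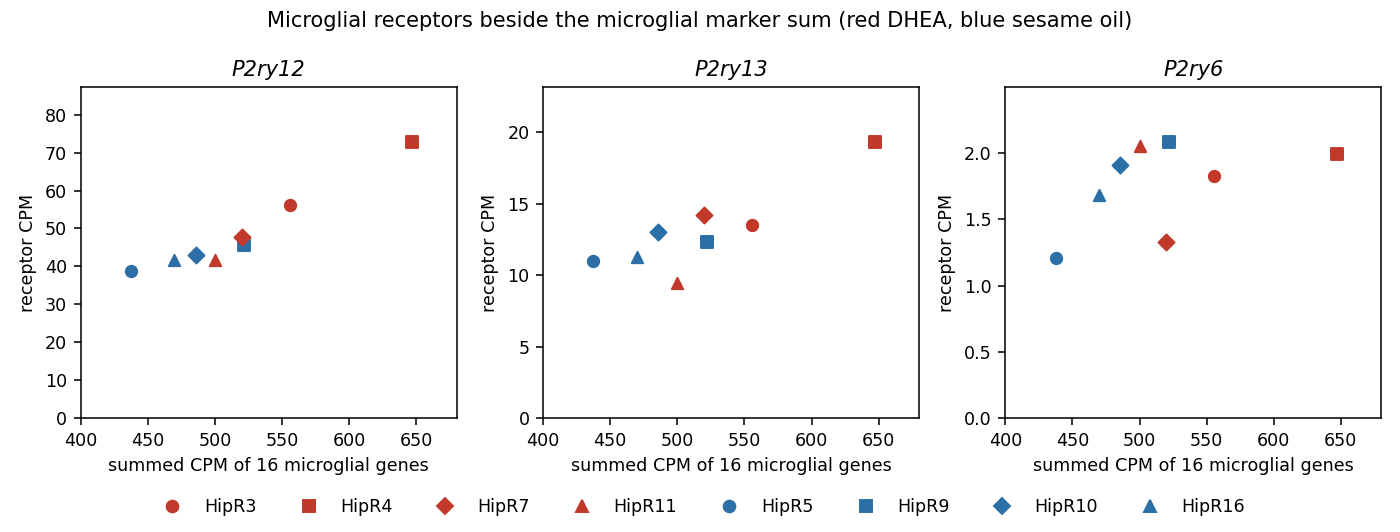
CPM of P2ry12, P2ry13 and P2ry6 (y axes from 0) against the summed CPM of 16 microglial genes (x axis from 400), 1 symbol per library. HipR4, at 647 CPM of markers, has the most P2ry12 and P2ry13, while P2ry6 is no higher there than in HipR9 and HipR11.

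Of the other glia, oligodendrocyte markers were higher in the DHEA-labelled libraries in 9 of 9 cases at an unadjusted p under 0.05 (median log2 fold change 0.38), and their sums did not overlap between arms (6421 to 8216 CPM against 4388 to 6248). Of the precursor markers 3 of 5 passed in this direction (median 0.20) and of the astrocyte markers 4 of 7 (median 0.17). HipR4 had the highest sum for all 3 of these cell types. Without HipR3 and HipR4, 6 of 9, 2 of 5 and 3 of 7 passed (medians 0.30, 0.18 and 0.14). Of all genes, 3.99% were then higher and 3.89% lower. Of 6 border macrophage markers 1 passed, Mrc1 (log2 fold change 0.44; edgeR, unadjusted p = 0.0312), with list sums of 7.68 CPM in HipR7 to 20.2 in HipR11. Of 7 endothelial markers 2 passed (median 0.03). Of 8 neuronal markers none was higher and 1, Rbfox3, was lower (log2 fold change -0.16; edgeR, unadjusted p = 0.00781), with a list median of -0.03. Of the other hippocampal markers, 1 of 7, Spink8, was higher (median -0.07). No marker of choroid plexus (0 of 5, median 0.43) or red blood cells (0 of 5, median 0.08) passed, and 0 markers of any list passed an adjusted p under 0.05. Without HipR3 and HipR4, 3 of 7 hippocampal markers were lower and none higher (median -0.14), 2 of 8 neuronal markers were lower (median -0.08), 1 of 5 choroid plexus markers was higher (median 0.57), and the red blood cell median was -0.57. Of the endothelial markers 1 was then higher and 1 lower (median -0.05), and no border macrophage marker passed (median 0.27). HipR3 and HipR4 had the highest red blood cell sums (159.3 and 147.9 CPM), so their choice largely fixes the fall of that median. For choroid plexus they held the highest and the lowest sum, so that shift also depends on the choice. The part of these cell types in the P2ry12 difference was not tested.

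Reads may also have been shared with genes on the other strand, since the strand setting of the counting is not given in the sources used here. In GENCODE vM21, P2ry12, P2ry13 and P2ry14 lie within Med12l, which runs the other way, and exons of P2ry12 overlap its exons. Med12l was lowest in HipR4 (51.1 CPM), where P2ry12 was highest, and its log2 fold change was -0.16 (edgeR, unadjusted p = 0.0879). Exons of Adora1 overlap Mybph, which had a mean count of 9.6, against 10040 for Adora1. An exon of P2ry1 overlaps the antisense gene Gm37035, and P2rx7 holds the microRNA gene Mir8115. Base composition differed between the arms as well: Spearman's rho between GC content and log2 abundance relative to the mean of the libraries, across genes within a library, was -0.152 to -0.01 in the DHEA-labelled libraries and 0.068 to 0.178 in the others. With this trend removed, the log2 fold change of P2ry12 was 0.28 (edgeR, unadjusted p = 0.0273).

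The rest of the purinergic system was examined through 53 further genes in 8 lists, of which 50 were tested. Among these, 9 of 50 were higher and 1 of 50 lower at an unadjusted p under 0.05, beside 4.82% and 4.49% of all genes. None had an adjusted p under 0.05, the median log2 fold change was 0.11, and 35 of 50 were above 0. The 9 became 6 without HipR4 or HipR5, 5 without HipR16 and 10 without HipR7 or HipR10. The share of all genes higher was 3.97% without HipR4, 3.31% without HipR5, 3.52% without HipR16, 6.51% without HipR7 and 3.91% without HipR10. Lpar4, Adk, Ada, Pnp and Nek7 passed in 8 of 8 fits with 1 library left out. Slc29a2 passed in 5 of 8, P2ry10b, Gja1 and Slc28a2 in 3 of 8, and Entpd1 in 2 of 8. Without both HipR3 and HipR4, 5 of 50 were higher and 2 lower, beside 3.99% and 3.89% of all genes. Of the 10 genes, Adk, Ada and Pnp then passed. Panx3 and Calhm1 were not analysed here.

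Of the further P2Y receptors, 0 of 2 passed, and P2ry2 was at 0.126 FPKM. Of 7 tested receptors related to P2Y receptors by sequence or by an older name, 2 were higher. P2ry10b, whose relative P2ry10 is a receptor of lysophosphatidylserine, had 16, 23, 17 and 16 counts in HipR3, HipR4, HipR7 and HipR11 and 5, 8, 12 and 7 in HipR5, HipR9, HipR10 and HipR16. By the labels the arms did not overlap, and the log2 fold change was 1.05 ± 0.46 (SE; edgeR, unadjusted p = 0.0359, adjusted p = 0.503). With the GC trend removed it was 0.94 and did not pass (edgeR, unadjusted p = 0.0548). Reads could have been divided between P2ry10b and its close copy P2ry10, which had a mean count of 0.625. Lpar4, a receptor of lysophosphatidic acid, had 4.16 to 6.17 CPM against 2.32 to 3.87 with no overlap (log2 fold change 0.66 ± 0.20, SE; edgeR, unadjusted p = 0.00327, adjusted p = 0.293). Its log2 fold change was 0.44 without HipR3 and HipR4, its highest libraries (edgeR, unadjusted p = 0.0655), a fall that their choice largely fixes. Gpr17, a receptor of oligodendrocyte precursors, was the most abundant of this list at 11.2 FPKM, with a log2 fold change of 0.10 (edgeR, unadjusted p = 0.23). Of the other P2X channels 0 of 5 passed, and P2rx6 led with 0.798 FPKM. Adora3, the remaining adenosine receptor, stood at 0.107 FPKM.

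On the supply side, 1 of 6 genes of ATP release passed. Gja1, the connexin 43 of astrocytes and the most abundant of all listed purinergic genes at 79.0 FPKM, had 252 to 293 CPM in the DHEA-labelled libraries and 222 to 273 in the others (log2 fold change 0.17; edgeR, unadjusted p = 0.0301). It did not pass with the GC trend removed (0.11, edgeR, unadjusted p = 0.143), nor with DESeq2, either count filter or limma. Panx1, a channel that releases ATP, had 7.55 to 10.7 CPM against 11 to 12.4 with no overlap, but did not pass (log2 fold change -0.24 ± 0.12, SE; edgeR, unadjusted p = 0.0686). Of 9 ectonucleotidases 1 passed, Entpd1 (CD39), which cleaves ATP and ADP on microglia and vessels. It had 18.9 CPM in HipR3 and 20.8 in HipR4, and 14.2 to 16.3 in the other 6 libraries (log2 fold change 0.24; edgeR, unadjusted p = 0.0466). Without HipR3 and HipR4, its highest libraries, its log2 fold change was 0.03, a fall that their choice largely fixes. Entpd1 also did not pass with the GC trend removed (0.20, edgeR, unadjusted p = 0.0878), nor with DESeq2, either count filter or limma. Entpd2, the most abundant of these at 3.90 FPKM, had a log2 fold change of 0.01.

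Of 12 genes of adenosine handling, the longest of these lists, 4 were higher and 1 lower. Adk, the adenosine kinase that clears adenosine in astrocytes, had 43.3 to 48.6 CPM in the DHEA-labelled libraries and 35.9 to 41.0 in the others, with no overlap (log2 fold change 0.25 ± 0.07, SE; edgeR, unadjusted p = 0.00257, adjusted p = 0.283). With the GC trend removed its log2 fold change was 0.15 (edgeR, unadjusted p = 0.0374). Pnp, which cleaves inosine further, had 15.0 to 18.4 CPM against 13.7 to 14.4, again with no overlap (log2 fold change 0.30 ± 0.10, SE; unadjusted p = 0.00587). Ada, adenosine deaminase, had 19 to 36 counts against 9 to 20 (log2 fold change 1.09 ± 0.41, SE; edgeR, unadjusted p = 0.0162). Slc29a2, an equilibrative nucleoside transporter, was lower, at 5.55 to 7.35 CPM against 7.43 to 9.17 with no overlap (log2 fold change -0.33 ± 0.14, SE; edgeR, unadjusted p = 0.0275, adjusted p = 0.477). Its log2 fold change was -0.20 without HipR3 and HipR4, its lowest libraries (edgeR, unadjusted p = 0.166), a change that their choice largely fixes. The transporter gene Slc28a2 also passed (unadjusted p = 0.0428), on 1 to 4 counts against 0 or 1, from which no fold change is given. Slc29a4, the most abundant transporter at 10.2 FPKM, had a log2 fold change of -0.00 (edgeR, unadjusted p = 0.995). It was lowest in HipR4 and HipR9 (16.5 and 21.2 CPM), the libraries with the lowest choroid plexus sums. It was highest in HipR3 (39.5 CPM), which had the highest such sum. The part of choroid plexus in its level was not tested.

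Downstream of P2rx7, 1 of 8 inflammasome genes passed. Nek7, a kinase that binds NLRP3 and the most abundant of the list at 17.0 FPKM, had 73.3 to 88.0 CPM against 64.6 to 72.4 with no overlap (log2 fold change 0.25 ± 0.07, SE; edgeR, unadjusted p = 0.00293, adjusted p = 0.293). With the GC trend removed its log2 fold change was 0.17 (edgeR, unadjusted p = 0.0174). Without HipR3 and HipR4, its highest libraries, it was 0.13 (edgeR, unadjusted p = 0.055), a fall that their choice largely fixes. Nlrp3 itself and Il1b were at 0.249 and 0.181 FPKM, with log2 fold changes of -0.36 ± 0.34 and 0.03 ± 0.57 (SE) that did not pass.

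**Figure D5:**
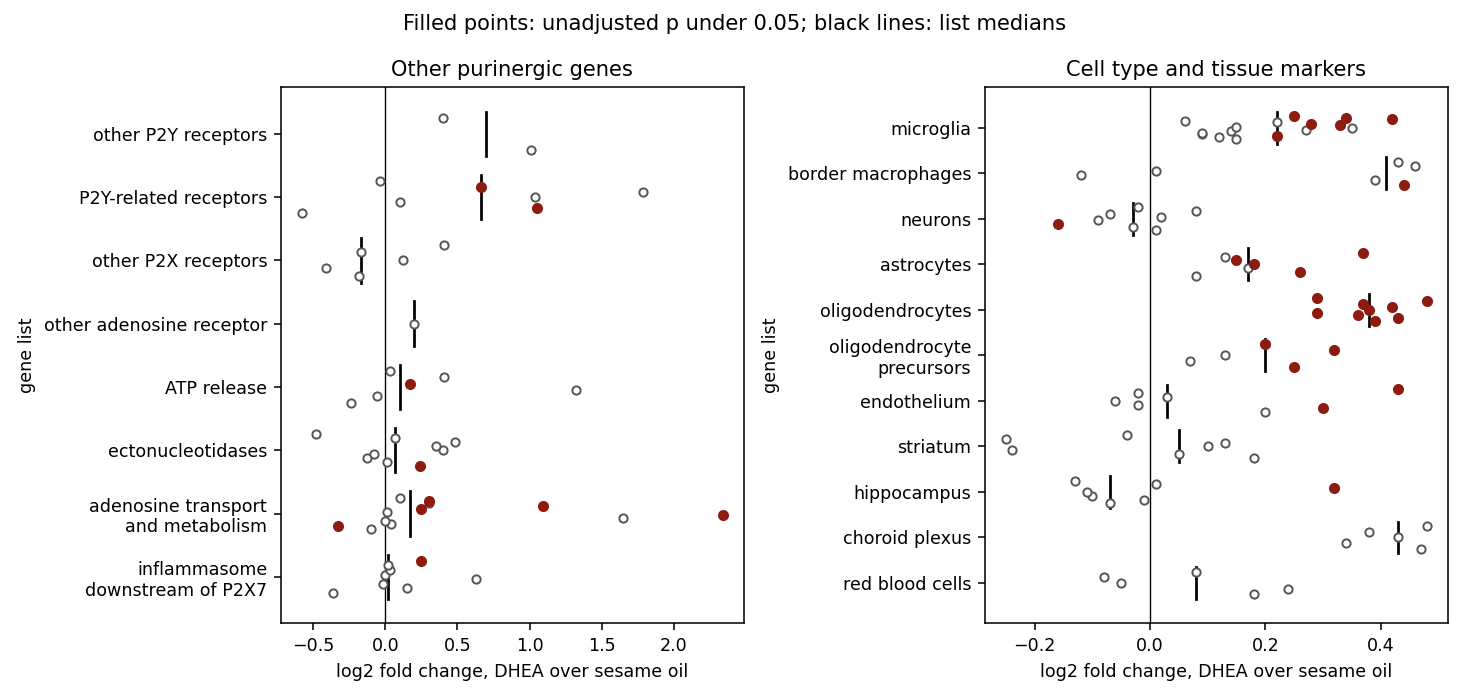
Log2 fold change of each tested gene, DHEA over sesame oil by label, for the other purinergic lists (left) and the marker lists (right), which have different x scales. Filled points have an unadjusted p under 0.05 and black lines are list medians. All 9 oligodendrocyte markers and 6 of 16 microglial markers are filled to the right of 0, and Slc29a2 is the filled purinergic gene to the left.

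Genes whose profile over the 8 libraries was most like that of a receptor were sought among the 12780 genes averaging 100 counts or more, by Pearson's r of log2(CPM + 0.5), as a description. For P2ry12 they were Dennd5a (0.988), Rtraf (0.987) and Rpl35a (0.986), and for P2ry13 Cdkn2aipnl (0.968), Svbp (0.965) and Omg (0.964). For P2rx4 they were Pcdhga12 (0.925), Relt and Dph7, and for P2rx7 Chd7 (0.955), Amdhd2 and Cdkl1. Those of Adora1 were Ndufb11 (0.994), Ube2k (0.978) and Creg2 (0.978), and those of Adora2b were Zfp874b (0.974), Zfp106 and Prxl2c. None of the 18 is in the microglial list. The points share the depth and base composition of their libraries, and HipR4 had the highest value for 4 of the 10 receptors.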

How the data were processed

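RNA-seq was measured in 8 hippocampal samples, 4 per label. The authors deposited 2 units, unnormalized counts for each gene and FPKM, both made per the labels' processing notes with fastp, HISAT2 and HTSeq on GRCm39. Versions, annotation and strand setting are not given in the sources used here. The deposited FPKM equal counts divided by the library total and 1 length per gene, constant within 0.1% for 25234 of 25234 genes.

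From the counts, edgeR 4.0.16 (TMM, quasi-likelihood, prior count 0.125) in R 4.3.3 tested 27612 of 29442 genes with at least 1 count, and p-values were Benjamini-Hochberg adjusted over all of them. Single values were compared by two-sided exact permutation (70 allocations), and neighbouring levels by sign flips (256). limma 3.58.1 on log2(FPKM + 1) or log2(FPKM + 0.1), DESeq2 1.42.0 and leaving out each library were alternatives. Total counts of 31483772 to 38038361 make 3 counts 0.0808 to 0.0952 CPM, counting error only. No 2 libraries agreed within sampling noise, and HipR3 and HipR4 differed most from all others. Scripts were tested on simulated data with 200 changed genes among 26669. At an adjusted p under 0.05, edgeR recovered 88% of the 200 and also called 65 unchanged genes. DESeq2 recovered 87.5% and called 32 unchanged genes, and limma on log2(FPKM + 1) recovered 76% and called 5. The methods describe littermate controls, but the labels tie no sample to a litter or batch, so litter was not modelled and p-values measure the spread between these samples.

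Members and lists were chosen with earlier results of these data known. The text names all 10 receptors, listed purinergic genes with an unadjusted p under 0.05, the most abundant gene of each list, P2ry10b, and the 3 most similar genes per receptor with a mean count of at least 100. P2ry10, Panx1, Nlrp3, Il1b, Med12l, Mybph and the named markers Ctss, Mrc1, Rbfox3 and Spink8 were added after their values were seen. Some genes that the rule names are not reported here.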

Additional observations from a re-analysis of the deposited data

Results flagged for a closer look

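Each receptor and ratio was examined in each arm for 1 library far from the other 3 (Dixon's gap ratio, 95% level). Of 32 such groups 2 stood out, where about 1 in 20, or 1.6, would by chance. P2rx7 in HipR3 was 11.7 CPM, while the other libraries labelled DHEA had 14.6 to 14.7 (gap ratio 0.973). P2ry14 in HipR10 was 3.50 CPM, while the other libraries labelled sesame oil had 2.28 to 2.49 (gap ratio 0.832). Without HipR3 the log2 fold change of P2rx7 was 0.03, and without HipR10 that of P2ry14 was 0.29, and neither passed an unadjusted p under 0.05.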

How the results depend on the processing

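No receptor had an adjusted p under 0.05 in any of the 18 alternatives or without both HipR3 and HipR4, although DESeq2 gave none to P2ry1, P2ry6, P2ry14, Adora2a and Adora2b. The count of receptors higher at an unadjusted p under 0.05, 1 as reported, was 0 with robust moderation and with limma on log2(FPKM + 1) or log2(FPKM + 0.1). It was 1 to 2 with each library left out, and 2 without HipR9 (P2rx4 added) or HipR11 (P2ry13 added), where 4.46% and 5.74% of all genes were higher. P2ry12 kept its direction throughout, at log2 fold changes of 0.28 to 0.37 (adjusted p 0.172 to 0.583; unadjusted p 0.00726 to 0.0719), or 0.19 to 0.48 with 1 library left out, and at 0.08 without both HipR3 and HipR4 (unadjusted p = 0.362, edgeR), its 2 highest libraries, a fall that their choice largely fixes. Differences near 0 changed sign: Adora1 was 0.01 with the GC trend removed and -0.04 to 0.02 with 1 library left out, P2rx7 -0.08 to 0.03, P2ry6 -0.07 to 0.19 and P2ry13 relative to microglial markers -0.10 to 0.12. Without both HipR3 and HipR4, P2ry6 was -0.03, P2ry13 -0.02 and P2rx7 0.03. With 1 library left out, P2ry1 ran from 0.02 to 0.49, P2ry13 from 0.05 to 0.40, P2ry14 from 0.05 to 0.29, P2rx4 from 0.16 to 0.36, Adora2b from 0.15 to 0.40 and Adora2a from -0.58 to -0.30. The causes were not tested. The 10 purinergic genes that passed kept their direction throughout, but Gja1, Entpd1 and P2ry10b did not pass with the GC trend removed, which took Adk from 0.25 to 0.15, and Gja1 and Entpd1 did not pass with DESeq2, either count filter or limma. Entpd1 did not pass with RLE factors or after thinning to the smallest total, Slc28a2 with DESeq2, robust moderation or thinning, or Slc29a2 with limma on log2(FPKM + 0.1), and Slc28a2 was not tested with filterByExpr. Over all genes, the count with an adjusted p under 0.05, 0 as reported, was 153 with DESeq2, 4 with robust moderation and 0 to 93 with 1 library left out (93 without HipR7). The 442 genes meeting the study's rule became 164 with DESeq2, 284 at 10 counts or more, 62 with filterByExpr and 1 or 48 with limma. The order of receptor levels was the same 10 of 10 in both arms. No paired analysis was possible because the labels tie no samples to litters and give no replicate numbers, and numbers within an arm were given in accession order. The counting error of Adora2a and P2ry6 was 14.6% and 12.7% (CV), beside within-arm CVs of 24.1% and 20%.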
